A study of Mus musculus with 8 samples.

Results

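Genes of MHC class I antigen presentation were followed in WT and cancer cells of mouse small intestinal organoids that had been cultured alone or mixed. The set was fixed by gene symbol as B2m, H2-K1, H2-D1, Tap1, Tap2, Tapbp, Psmb8, Psmb9, Psmb10 and Nlrc5. Of these 10 genes, 9 had a row among the 13420 genes of the read count table, and Nlrc5, an activator of class I transcription, was not analysed here. Reads were few for several members, so that 6 passed the filter on low counts and were tested, and Tap2, Psmb8 and Psmb9 are given by their reads.

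The study asked how WT intestinal cells and cancer cells change when they compete in the same organoid. WT organoids came from C57BL/6 mice carrying mTmG, a reporter of membrane-bound tdTomato that the methods place together with Rosa26-CreERT2. Cancer organoids, labeled with Dendra2 and of strain C57BL/6 (F6), carried Villin-CreERT2, in which the Villin promoter drives an inducible Cre in intestinal epithelium, with alleles that include Apc fl/fl and Tr53 fl/R172H, as the label spells the p53 gene, and were made from transformed intestine taken shortly after tamoxifen. On day 3 after mixing at 2 parts WT to 1 part cancer, live single cells were sorted by their fluorescence and sequenced in bulk. The 8 libraries are named by well. Wells A01 and A05 hold pure WT and wells A02 and A06 mixed WT cells, whereas A03 and A07 hold pure and A04 and A08 mixed cancer cells. Both kinds of organoid hold epithelium alone by design, without the T cells that would read class I molecules in the animal. Whether the 2 libraries of a group came from separate cultures is not stated, so SDs and p-values measure the spread between libraries, which may be technical.

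Class I molecules display peptides from a cell's own proteins on its surface, where CD8 T cells inspect them. The immunoproteasome, in which Psmb8, Psmb9 and Psmb10 replace the constitutive subunits Psmb5, Psmb6 and Psmb7, cuts proteins into peptides. Tap1 and Tap2 form the pump that carries peptides into the endoplasmic reticulum, tapasin (Tapbp) holds empty class I molecules at that pump, and a heavy chain (H2-K1 or H2-D1) with the light chain beta-2 microglobulin (B2m) presents the peptide. In intestinal epithelium and elsewhere, interferon is known to raise most of these genes through STAT and IRF factors and Nlrc5.

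Depth ranged from 73109 reads on genes in A02 to 4733121 in A04, a 64.7-fold range, and A02 is the library in which most members are limited by counting. Levels are given as normalized CPM, counts per 1e+06 reads after TMM scaling, and 3 reads correspond to 39.3 CPM in A02, 6.80 in A06 and 0.587 in A04. Of 10 epithelial markers, all were in the table, and their summed level was 4780 to 7030 CPM in 7 libraries and 16300 CPM in A06. Of 15 leukocyte markers, 6 were in the table, Ptprc and Cd3e were among those that were not, and Cd14 held nearly all of their summed 26.2 to 404 CPM. Of 9 stromal and endothelial markers, 1 was in the table, with 1 read in all. Trp53, one of the altered genes, had a mean of 251 CPM in pure and 93.8 in mixed WT cells, 38.5 in pure and 57.0 in mixed cancer cells, whereas Apc had 0 to 22 reads a library and reads at the 3' end do not show an exon lost upstream.

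B2m lies on chromosome 2 (122147686 to 122153083, GRCm38), Psmb10 on chromosome 8 (105935735 to 105938444), and the other 7 members in the table lie in the MHC on chromosome 17. From centromere to telomere these are Tapbp (33915899 to 33929292), H2-K1 (33996017 to 34000347), Psmb9 (34181987 to 34187764), Tap1 (34187553 to 34197225), Psmb8 (34197721 to 34201454), Tap2 (34203527 to 34216321) and H2-D1 (35262730 to 35267499). All are protein-coding genes in the GENCODE annotation. The libraries read transcript 3' ends, and the 2 heavy chains share sequence there. Windows of 50 bases in the last 500 bases of their annotated transcripts were compared with the transcripts of other genes. Of these windows, 9.60% for H2-K1 and 8.92% for H2-D1 also occur in another gene. Those of H2-K1 occur in 24 genes, most often H2-D1, H2-Q1 and H2-T23. Those of H2-D1 occur in 81 genes, with H2-K1 listed first and then AC132307.5, Adsl and Kcnk4. Reads that mapped equally well to several places had been discarded, so heavy chain counts rest on the remaining stretches and their split stays uncertain. Tap1 shared 2.75% of its windows with Tap2, Tapbp shared 4.83% with Zbtb22, and B2m, Tap2, Psmb8, Psmb9 and Psmb10 shared none.

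Because B2m was the one member called, its heavy chains were not, and Tap1 had the largest fitted change, the promoters of these 4 genes are shown. A table of RefSeq promoters (GRCm38.p6) held a window for 8 members, and Tap2 and Nlrc5 had none. Each stretch below runs 5' to 3' on the strand of its gene over 250 bases, of which the last 20 follow the start of transcription. Capitals mark matches, on either strand, to 5 patterns often met in class I and interferon-responsive promoters, GAAANNGAA, TTCNNNGAA, GGGNNTTCC, TGACG and CTGATTGG.
H2-K1 (chr17:34000328-34000577, minus strand): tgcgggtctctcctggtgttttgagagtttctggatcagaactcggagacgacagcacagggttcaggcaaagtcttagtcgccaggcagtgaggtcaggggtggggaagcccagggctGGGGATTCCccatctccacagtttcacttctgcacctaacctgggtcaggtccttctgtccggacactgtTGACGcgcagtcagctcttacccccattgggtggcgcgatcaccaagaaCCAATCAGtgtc
H2-D1 (chr17:35262864-35263113, plus strand): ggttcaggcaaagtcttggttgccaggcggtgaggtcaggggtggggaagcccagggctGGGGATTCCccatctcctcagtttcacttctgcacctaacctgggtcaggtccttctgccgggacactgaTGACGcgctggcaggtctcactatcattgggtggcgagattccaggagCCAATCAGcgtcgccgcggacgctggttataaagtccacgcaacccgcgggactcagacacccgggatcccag
B2m (chr2:122147457-122147706, plus strand): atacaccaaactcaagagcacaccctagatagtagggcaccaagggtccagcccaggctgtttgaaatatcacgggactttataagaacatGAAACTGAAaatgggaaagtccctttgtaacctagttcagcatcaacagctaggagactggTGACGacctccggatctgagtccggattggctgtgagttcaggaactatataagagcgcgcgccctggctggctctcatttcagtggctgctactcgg
Tap1 (chr17:34187326-34187575, plus strand): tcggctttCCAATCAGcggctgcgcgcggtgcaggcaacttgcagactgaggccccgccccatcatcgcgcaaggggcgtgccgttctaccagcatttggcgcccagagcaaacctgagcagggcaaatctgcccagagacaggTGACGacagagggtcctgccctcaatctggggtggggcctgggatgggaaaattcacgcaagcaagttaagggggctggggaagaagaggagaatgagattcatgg

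The heavy chain promoters carried the same series of matches, GGGNNTTCC, then TGACG 70 bases further on in both genes, then CTGATTGG on the opposite strand. The B2m stretch held GAAANNGAA and TGACG and no exact match to the other 2 patterns of the heavy chains. The Tap1 stretch held TGACG and CTGATTGG, and it overlaps the promoter window of Psmb9, whose start lies 226 bases away on the opposite strand. Psmb8 matched TTCNNNGAA, and Tapbp and Psmb10 matched none of the patterns. Over all 32851 windows of the table, each of 250 bases before and 50 after a start, the patterns occurred in 8.56% for GAAANNGAA, 8.30% for TTCNNNGAA, 5.82% for GGGNNTTCC, 20.8% for TGACG and 4.10% for CTGATTGG. No pattern overlapped another in these promoters. A match describes letters and not binding, and a missing match does not exclude a related site with slightly different letters.

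Neither heavy chain was called in any comparison. H2-K1, encoding the K heavy chain, stood at 707 and 645 CPM in the pure WT libraries, 589.9 and 816 in mixed WT, 378 and 557 in pure and 729 and 721 in mixed cancer cells. Both pure cancer libraries were lowest, and the other 3 groups overlapped. Of all tested genes, 29.4% were likewise lower in both pure cancer than in both pure WT libraries, and 13.8% were higher in both mixed than in both pure cancer libraries. The group means were 676 ± 44.0 (SD, n = 2) in pure and 703 ± 159.6 in mixed WT cells, 467 ± 126 in pure and 725 ± 5.82 in mixed cancer cells. H2-D1, encoding the D heavy chain, stood at 524 and 436 CPM in pure and 446 and 729.5 in mixed WT cells, 325 and 473 in pure and 449 and 409.8 in mixed cancer cells. Here each group overlapped its neighbour in the order of means, which ran from 588 ± 201 in mixed WT through 479.8 ± 61.8 in pure WT and 429.5 ± 27.9 in mixed cancer to 399 ± 104 (SD, n = 2) in pure cancer cells. Between mixed and pure WT cells H2-K1 differed by a log2 fold change of 0.07 (95% interval -0.796 to 0.936, adjusted p = 0.988) and H2-D1 by 0.32 (-0.586 to 1.222, adjusted p = 0.884). The intervals leave room for changes near 2-fold, so equal levels are not shown.

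B2m had its highest levels in mixed WT cells. Its levels were 203 and 409 CPM in pure and 589.9 and 1001 in mixed WT cells, 215 and 198 in pure and 208 and 259 in mixed cancer cells. Both mixed WT libraries lay above the 6 others, which overlapped among groups. Of all tested genes, 15.0% were higher in both mixed than in both pure WT libraries. How many also lay above the cancer libraries was not counted. The group means were 306 ± 145 in pure and 796 ± 291 in mixed WT cells, 206 ± 12.5 in pure and 234 ± 36.2 (SD, n = 2) in mixed cancer cells. Against mixed WT cells, B2m fell by 1.80 on the log2 scale in mixed cancer cells (SE 0.482, 95% interval -2.80 to -0.804, adjusted p = 0.0215, edgeR quasi-likelihood test with Benjamini-Hochberg adjustment over 5264 genes). This was the single call among the members in any comparison, and 6.42% of all tested genes were called there in either direction and 4.41% as lower in mixed cancer cells. B2m was also lower in both mixed cancer libraries than in both mixed WT libraries, as were 18.4% of all tested genes. In bulk libraries, fewer cells with a transcript and less of it per cell cannot be told apart. The call was lost without mixed cancer library A04 (log2 fold change -1.67, adjusted p = 0.193), without A08 (-1.91, adjusted p = 0.0616) and without mixed WT library A06 (-1.29, adjusted p = 0.200), and it held under all other settings tried.

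**Figure D1:**
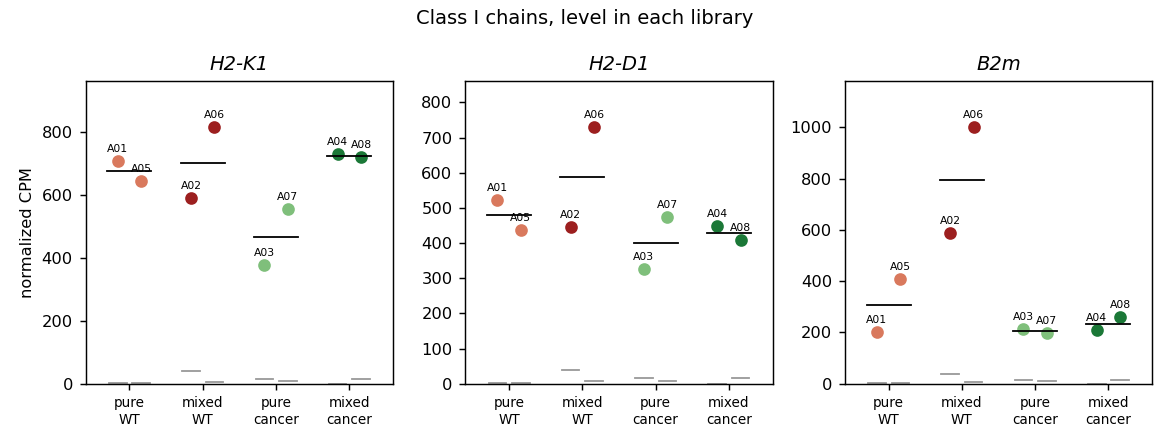
Normalized CPM (vertical axis, starting at 0, linear) of H2-K1, H2-D1 and B2m in each library of the 4 groups. Points are libraries named by well, black lines are group means, and short grey lines are the level of 3 reads in that library. B2m stands at 589.9 and 1001 CPM in mixed WT cells and at 198 to 409 CPM in the others, while the heavy chains overlap between most groups.

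Between mixed and pure WT cells, the comparison in which the study looked for the response to competition, B2m had a log2 fold change of 1.40 (SE 0.469, 95% interval 0.428 to 2.37), with an adjusted p of 0.234. It was not called. With 1 library left out, the log2 fold change ran from 0.86 (without A06) to 2.02 (without A05). Its adjusted p was between 0.0643 and 1 under all alternatives but 1, and it passed, with an adjusted p of 0.0408, when the wells A01 to A04 and A05 to A08 were fitted as blocks, which the labels do not describe as batches. The change in WT cells exceeded that in cancer cells by 1.23 on the log2 scale (95% interval -0.156 to 2.61), again without passing (adjusted p = 0.750), in a comparison where 0.076% of tested genes were called. The share of B2m among the reads of B2m, H2-K1 and H2-D1 needs no scaling between libraries, and this measure was chosen after the values were seen. It was 14.2% and 27.4% in pure and 36.3% and 39.3% in mixed WT cells, 23.4% and 16.1% in pure and 15.0% and 18.7% in mixed cancer cells. Both mixed WT libraries again lay above all others, with exact 95% counting intervals of 27.8 to 45.4% in A02 and 36.5 to 42.2% in A06, against 25.7 to 29.2% in A05, the next library. In barcode counts, which level off for abundant genes, the mixed WT shares were 31.3% and 36.4%, with pure WT library A05 at 30.2% and A04 at 29.4% close to the lower of them. An exact permutation test of 2 against 2 libraries cannot reach a threshold of 0.05, so none is given.

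Several epithelial markers differed in the comparison that called B2m. Krt8, a keratin of simple epithelia, was called lower in mixed cancer than in mixed WT cells (log2 fold change -1.83, adjusted p = 0.00978), and the summed epithelial markers were highest in A06, the library with the highest B2m. In the same comparison the epithelial genes Cdx1, Cdx2 and Krt20 were called lower and Cd14, on the leukocyte list, was called higher (log2 fold change 2.81, adjusted p = 0.0125). Of the 10 epithelial markers, 4 were thus called lower and 1 was higher without a call, where 4.41% of all tested genes were called lower. Without A06 none of these 5 calls remained. The part of these differences in the B2m values was not tested. Cdx1 was also called lower in pure cancer than in pure WT cells (log2 fold change -11.3, adjusted p = 3.79e-05). Cd14 was also measured in pure cancer cells, at a mean of 261 CPM against 77.0 in pure WT cells, while the defining leukocyte marker Ptprc was not in the table.

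The genes of peptide transport and loading had 0 to 67 reads in every library but A04. Tap1, one chain of the peptide pump, had 6 and 5 reads in pure WT libraries (5.49 and 2.81 CPM), 3 and 26 in mixed WT (39.3 and 58.9 CPM), 1 and 1 in pure cancer (5.25 and 2.99 CPM) and 137 and 1 in mixed cancer cells (26.8 and 5.19 CPM). Both mixed WT libraries were highest, and of the mixed cancer libraries only the deep A04 stood apart from the pure ones. The 3 reads in A02 carried a single barcode and may be copies of 1 molecule, whereas the 26 reads in A06 carried 13 barcodes. Tap1 passed the filter through the libraries in which it was high, so it had to differ, and its fitted values are a description from which nothing is read. Against pure WT cells, Tap1 in mixed WT cells had a log2 fold change of 3.66 (SE 1.00, 95% interval 1.59 to 5.73), and 3.16 without A06, which holds 26 of the 29 mixed WT reads. Pooled reads gave a ratio of 14.6 (exact 95% counting interval 7.09 to 32.4), and pooled barcodes gave 6.09 (2.38 to 16.7). Between mixed and pure cancer cells Tap1 had a log2 fold change of 2.32 (95% interval -0.302 to 4.94), which was 0.41 without A04, the library that holds all but 1 of the mixed cancer reads. The changes in the WT and the cancer cells differed by 1.34 (-2.36 to 5.03, adjusted p = 0.923), and by 3.19 without A04.

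Tap2, the partner chain of the pump, had 5 reads in each pure WT library, 16 in A04 and 0 in the other 5 libraries. In mixed WT cells a count of 0 allows up to 5.80 CPM, above the 3.69 ± 1.25 CPM (SD, n = 2) of pure WT cells, so a fall could not be detected at this depth. Tapbp, encoding tapasin, stood at 37.5 and 37.7 CPM in pure and 0 and 109 in mixed WT cells, 21.0 and 65.8 in pure and 87.7 and 62.2 in mixed cancer cells. The mixed WT libraries were the lowest and the highest of all 8, and every group overlapped its neighbour in the order of means. Its log2 fold change between mixed and pure WT cells was 0.89 (95% interval -0.705 to 2.48, adjusted p = 0.786).

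**Figure D2:**
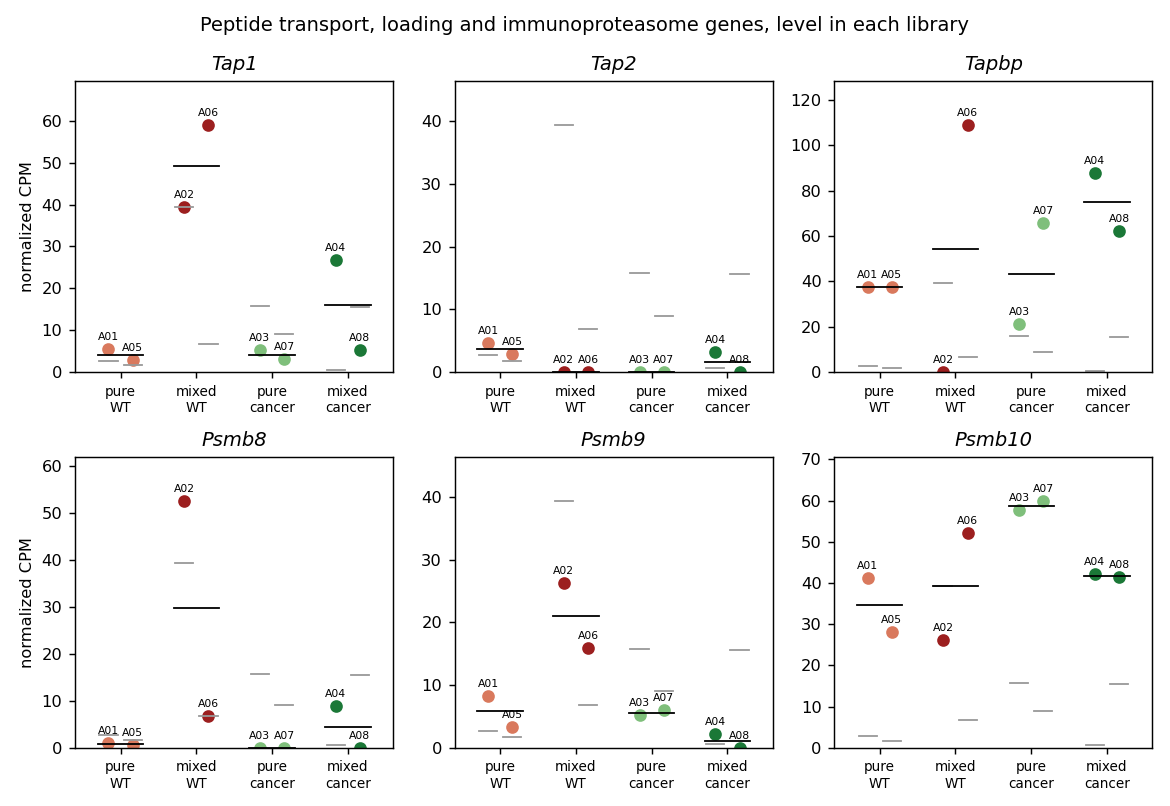
Normalized CPM (vertical axis, starting at 0, linear, scaled per gene) of Tap1, Tap2, Tapbp, Psmb8, Psmb9 and Psmb10 in each library. Points are libraries named by well, black lines are group means, and short grey lines mark the level of 3 reads, 39.3 CPM in A02, so points at or below their grey line rest on 3 reads or fewer. Tap1 is highest in A02 and A06, whereas Psmb10 lies between 26.2 and 59.9 CPM throughout.

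The immunoproteasome subunits Psmb8 and Psmb9 were sparse. Each pure WT library held 1 read of Psmb8 and the mixed WT libraries held 4 and 3. Both pure cancer libraries held 0 reads of it, and of the mixed cancer libraries A04 held 45 and A08 held 0. Psmb9 had 9 and 6 reads in pure and 2 and 7 in mixed WT cells, 1 and 2 in pure and 11 and 0 in mixed cancer cells. After scaling, Psmb9 stood at 8.24 and 3.37 CPM in pure WT cells, below the 26.2 and 15.9 CPM of mixed WT cells. In the cancer libraries it stood at 0 to 5.99 CPM. The 26.2 CPM in A02 rests on 2 reads, where 3 reads make 39.3 CPM. Of the tested genes, which leave out Psmb9, 15.0% were higher in both mixed than in both pure WT libraries. Over pooled reads, mixed WT cells held 19.4 times the Psmb8 of pure WT cells (exact 95% counting interval 3.70 to 192, from 7 against 2 reads) and 3.33 times the Psmb9 (1.28 to 8.12, from 9 against 15 reads). Over barcodes the ratios were 6.96 (0.997 to 76.9) for Psmb8 and 2.85 (1.04 to 7.56) for Psmb9. Psmb9 was at 0.119 times the mixed WT level in mixed cancer cells (0.0449 to 0.326), and at 0.243 times over barcodes (0.0855 to 0.691). These intervals cover counting error only, and reads include amplification copies.

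Psmb10, the subunit with the most reads, stood at 41.2 and 28.1 CPM in pure and 26.2 and 52.1 in mixed WT cells, 57.7 and 59.9 in pure and 42.1 and 41.5 in mixed cancer cells. Both pure cancer libraries were highest, above both mixed cancer libraries, with means of 58.8 ± 1.505 and 41.8 ± 0.404 CPM (SD, n = 2). Of all tested genes, 10.8% were lower in both mixed than in both pure cancer libraries. Mixed WT cells overlapped both pure WT and mixed cancer cells. The lowest value, in A02, rests on 2 reads. The fitted log2 difference of mixed from pure cancer cells was -0.49 (95% interval -1.92 to 0.934, adjusted p = 1), and that of mixed from pure WT cells was 0.34 (-1.11 to 1.80, adjusted p = 0.935).

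Each immunoproteasome subunit was also set against the constitutive subunit it replaces, as a share of the reads of the pair within a library. Psmb8 made up 0.302% and 0.328% of Psmb8 and Psmb5 reads in pure and 26.7% and 3.80% in mixed WT cells, 0% in both pure cancer libraries, and 3.11% and 0% in mixed cancer cells. Pooled over a group, this was 0.314% in pure WT (exact 95% interval 0.0381 to 1.13%) and 7.45% in mixed WT cells (3.05 to 14.7%). In mixed cancer cells it was 3.03% (2.22 to 4.03%). Pure cancer cells held 0 of 166 reads, for which the exact interval reaches up to 2.2%. The mixed WT value rests on 7 of 94 reads. Psmb9 made up 2.29% and 1.78% of Psmb9 and Psmb6 reads in pure and 10.5% and 6.73% in mixed WT cells, 1.64% and 2.99% in pure, and 0.815% and 0% in mixed cancer cells. On reads the mixed WT libraries were highest for both pairs, with A04 just below A06 for Psmb8. On barcodes this order held for Psmb9, but the Psmb8 share was 11.4% in A04 against 18.2% in A02 and 3.85% in A06, and pooled over groups it was 10.5% in mixed cancer and 6.35% in mixed WT cells. Psmb10 made up 17.6% and 14.1% of Psmb10 and Psmb7 reads in pure and 11.8% and 26.4% in mixed WT cells. Its share was 18.6% and 29.0% in pure, and 18.6% and 22.2% in mixed cancer cells. For this pair, the 4 cancer libraries lay above both pure WT libraries on reads, and mixed WT cells overlapped all groups. This separation was lost on barcodes, where pure WT library A01 (22.9%) lay above cancer libraries A03 and A08. With transcript counts A01 (19.6%) also lay above both, though narrowly.

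**Figure D3:**
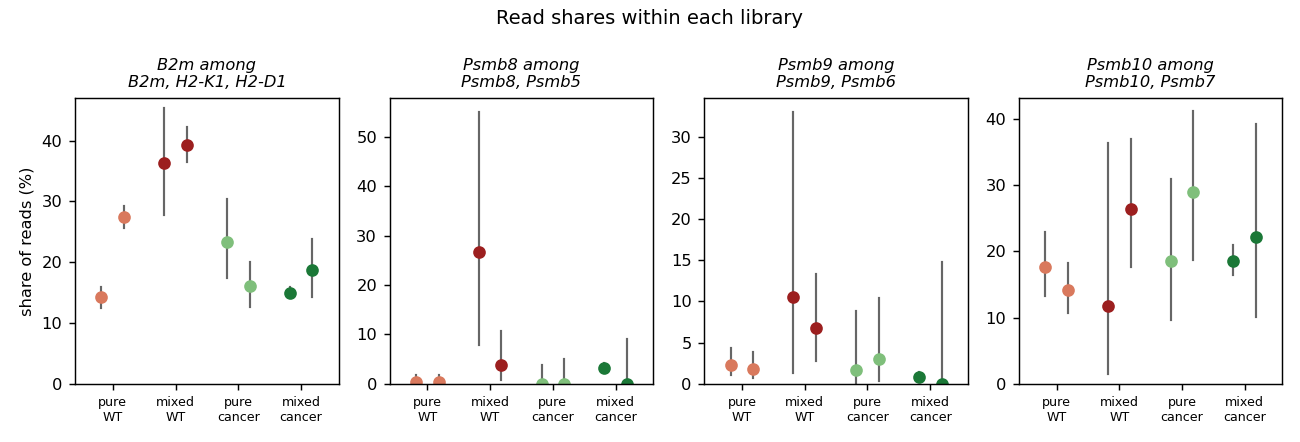
Shares of reads (percent, linear axis from 0, scaled per panel) within each library, for B2m among B2m, H2-K1 and H2-D1 and for each immunoproteasome subunit among itself and its constitutive partner. Points are libraries in the order of their wells within a group, and bars are exact 95% intervals, which cover counting error only. B2m makes up 36.3% and 39.3% in mixed WT cells and 14.2 to 27.4% elsewhere, and the bars for A02 are wide in the subunit panels.

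Over the 6 tested members together, all 6 were higher in mixed than in pure WT cells, at a median log2 fold change of 0.616 against -0.0983 over all tested genes, of which 44.8% were higher. Tap1 passed the filter through these libraries, and over the 5 other members the median was 0.343. None of the 6 was called, where 0.741% of all tested genes were. Of the 5 members other than Tap1, 1, B2m, had an unadjusted p under 0.05, where 9.67% of all tested genes did, and B2m alone of these 5 was higher in both mixed WT libraries than in both pure WT libraries, against 15.0% of all tested genes. DESeq2 called none of them either, and it gave Tap1 no adjusted p on the 8 libraries. The median over the 6 rests on A06, since without it the median was -0.240. Mixed against pure cancer cells gave 5 of 6 higher and a median of 0.398 against 0.0322 over all tested genes. This median was 0.169 without Tap1, 0.193 with transcript counts and -0.0324 with barcode counts. In this comparison there were 0 members called by edgeR or DESeq2 and 0% of all genes by edgeR, and 0 members at an unadjusted p under 0.05. The mixed against pure comparisons of WT and of cancer cells use different libraries, and each further comparison shares libraries with these.

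No member was called between pure cancer and pure WT cells. Of the 6, 2 were higher and 4 lower in pure cancer cells, at a median of -0.155 against -0.0513 over all tested genes, and 0 were called by edgeR or DESeq2, where 9.95% of all tested genes were, and 0 had an unadjusted p under 0.05. H2-K1 differed by -0.53 (95% interval -1.39 to 0.339), H2-D1 by -0.26 (-1.16 to 0.644), B2m by -0.57 (-1.55 to 0.408), Tap1 by -0.05 (-3.04 to 2.94), Tapbp by 0.28 (-1.35 to 1.91) and Psmb10 by 0.77 (-0.615 to 2.16). Both pure cancer libraries lay below both pure WT libraries for H2-K1, as for 29.4% of all tested genes, and above both for Psmb10, as for 23.2%. Between mixed cancer and mixed WT cells the heavy chains differed by 0.03 for H2-K1 (-0.840 to 0.902) and -0.47 for H2-D1 (-1.39 to 0.439), Tap1 by -1.39 (-3.27 to 0.499), Tapbp by 0.14 (-1.46 to 1.75) and Psmb10 by -0.06 (-1.55 to 1.43), all with adjusted p above 0.5.

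**Figure D4:**
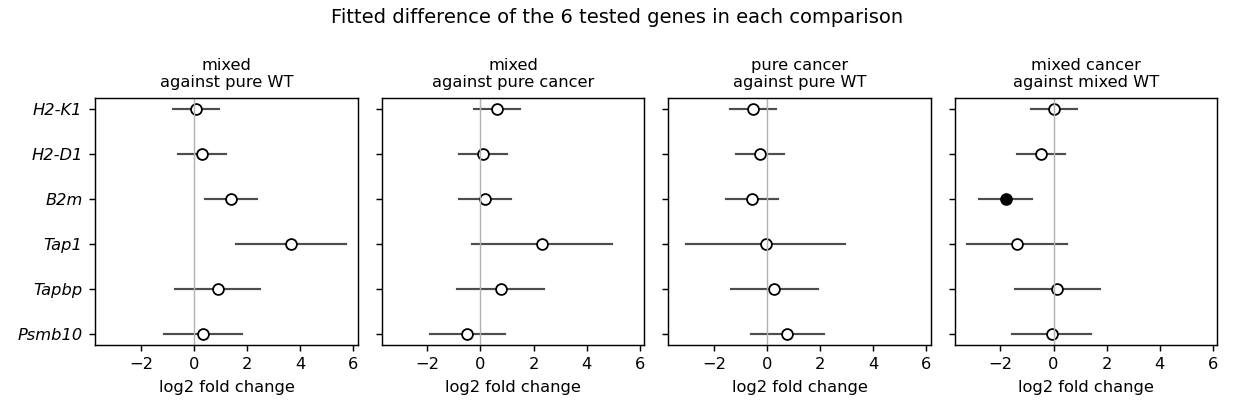
Log2 fold changes (horizontal axis, edgeR) of the 6 tested members in 4 comparisons, with 95% intervals as bars. The filled point is the single call, B2m at -1.80 in mixed cancer against mixed WT cells, and open points were not called. Between mixed and pure WT cells the interval of B2m lies above 0 without a call. The interval of Tap1 there is a description only, since Tap1 passed the filter through the libraries in which it was high.

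Genes around the members in the pathway gave 1 call. It fell between mixed cancer and mixed WT cells, where 6.42% of all tested genes were called, and 4.41% as lower in mixed cancer cells. Among the regulators of class I transcription, all 19 listed genes were in the table and 12 were tested, and Ifngr2, a chain of the interferon gamma receptor, was lower in mixed cancer than in mixed WT cells (log2 fold change -2.13, SE 0.558, adjusted p = 0.0182). Ifngr2 stood at 225 ± 20.5 CPM in pure and 290.0 ± 206 in mixed WT cells, 136 ± 1.25 in pure and 64.7 ± 32.8 (SD, n = 2) in mixed cancer cells, and its call was lost without A06 (-0.98, adjusted p = 0.411) and without A08 (-1.76, adjusted p = 0.163). In mixed against pure WT cells, 11 of the 12 were higher, with a median of 0.617. Over all tested genes 44.8% were higher, with a median of -0.0983. Of the 12, 0 were called, where 0.741% of all tested genes were. Among cancer cells, 10 of the 12 were also higher when mixed than when pure, at a median of 0.351, and 0 were called. For that comparison 52.2% of all tested genes were higher, with a median of 0.0322. The summed level of the 19 listed genes was 485 CPM in A02 and 1040 in A06, against 447 in A01 and 628 in A05. Irf9, the DNA-binding part of the interferon response complex, was picked after its values were seen and stood at 7.24 ± 2.48 CPM in pure and 56.6 ± 12.7 in mixed WT cells, 20.6 ± 7.97 in pure and 45.5 ± 20.3 (SD, n = 2) in mixed cancer cells. Its log2 fold change between mixed and pure WT cells was 2.85 (95% interval 1.09 to 4.61, adjusted p = 0.148).

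Of 17 other class I and class I-like heavy chains, 11 were in the table, 3 were tested and 0 were called in any comparison. H2-T23, encoding the Qa-1 heavy chain, had means of 11.5 CPM in pure and 9.06 in mixed WT cells, 44.5 in pure and 38.4 in mixed cancer cells, and H2-Q1 had 36.0, 29.2, 31.5 and 24.9 CPM in the same order. The log2 difference of H2-T23 between pure cancer and pure WT cells was 2.01 (95% interval 0.279 to 3.73, adjusted p = 0.156). Of 8 helpers of peptide trimming and loading, 5 were tested and 0 called. Calr, the chaperone calreticulin of the loading complex, stood at 396 ± 58.5 CPM in pure and 194 ± 40.6 in mixed WT cells (log2 fold change -1.07, 95% interval -2.03 to -0.111, adjusted p = 0.428), and 386 ± 85.3 in pure and 514 ± 44.8 (SD, n = 2) in mixed cancer cells. Hspa5, a general chaperone of the endoplasmic reticulum, differed by 0.14 between mixed and pure WT cells (-1.06 to 1.34). Of 8 constitutive subunits and proteasome activators, 7 were tested and 0 called, and Psmb5 and Psmb6 differed by -0.55 (-1.62 to 0.523) and -0.28 (-1.35 to 0.788) in WT cells. Of 10 class II genes, 4 were in the table and none passed the filter, with H2-DMa at a mean of 2.00 reads and H2-DMb1 at 0.625 reads a library.

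The genes whose log2 CPM followed the mean profile of the 6 tested members most closely, among 2741 genes with at least 50 reads a library on average, included Krt19 (Pearson's r of 0.962 over 8 libraries), Shisa5 (0.857), Agpat2 (0.843) and Efhd2 (0.841). The 8 libraries differ widely in depth, and the order is a description. Without A06 and A04, the libraries farthest from the median of the profile, the values were 0.719, 0.260, 0.591 and 0.949. Krt19, a keratin, had means of 1190 CPM in pure and 2060 in mixed WT cells, 1210 in pure and 1400 in mixed cancer cells.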

How the data were processed

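RNA of sorted cells was read by CEL-Seq, which sequences transcript 3' ends. The authors aligned read 2 to the mm10 RefSeq transcriptome with BWA, discarded reads with several equally good places and deposited read counts per gene from featureCounts, whose versions are not given in the sources used here. They also deposited barcode counts, at most 256 a gene, and estimated counts of transcripts corrected from them. A DESeq2 1.22.2 table of the authors' own comparison was not used.

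Read counts were fitted here with edgeR 4.0.16 (R 4.3.3), glmQLFit on all 8 libraries with 4 group means, TMM factors and filterByExpr at a minimum count of 10. A gene counted as called below an adjusted p of 0.05 (Benjamini-Hochberg over 5264 genes). The fit was tested on simulated data. Of the 13420 genes kept, 2 entries that are not mouse genes were left out beforehand. Groups come from the labels. Intervals of shares and pooled ratios are exact (Clopper-Pearson, 95%) and cover counting error only. Positions and shared windows come from GENCODE vM21 (GRCm38).

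Members, lists and alternatives were chosen with earlier results of these data known. Named are all members, list genes that were called or otherwise the 2 with most reads, the partners of the immunoproteasome subunits, and the 5 genes with the most similar profile. An altered allele of the cancer organoids, a marker and a gene of similar profile are not reported here. Alternatives were barcode or transcript counts, other scalings and filters, DESeq2 1.42.0, a fit of the 4 libraries compared, and each library left out. Those for Psmb8, Psmb9 and list genes, and a block by quartet of wells, were added after seeing the data.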

Additional observations from a re-analysis of the deposited data

How the results depend on the processing

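The call of B2m between mixed cancer and mixed WT cells held under each of the 10 settings other than leaving out 1 library. Log2 fold changes there were -1.84 to -1.67, with adjusted p of 0.00213 to 0.0444. The call was lost in some of the fits with 1 library left out. Between mixed and pure WT cells, 1 member (Tap1) was called with only the 4 libraries compared, and 0 to 1 with a library left out (Tap1, without A02, A03, A07 or A08). Since Tap1 passed the filter through the libraries in which it was high, these calls are no support for it. Counts of called genes over the whole table also moved. For mixed against pure WT cells they ran from 39 in the main fit to 119 with the block by quartet of wells, and they were lower without A05 or A06. In the 3 other comparisons no setting called a member.

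Values that changed sign were all uncalled. With barcode counts, B2m and H2-D1 between mixed and pure cancer cells became -0.16 and -0.42, Tapbp and H2-K1 between the mixed groups -0.17 and -0.60, and Tap1, H2-K1 and H2-D1 between the pure groups 0.0618, 0.0734 and 0.296. With transcript counts, B2m between the cancer groups became -0.0359, H2-K1 and Tapbp between the mixed groups -0.0902 and -0.287, and H2-D1 and Tap1 between the pure groups 0.0159 and 0.342. H2-K1 between the mixed groups became -0.00605 with DESeq2 on 8 libraries, -0.0208 with median-of-ratios factors and -0.0163 at a minimum count of 50, and Tap1 between the pure groups became 0.00435 and 0.0145 under the first 2 of these. Psmb10 between the mixed groups became 0.0351 with DESeq2 on 4 libraries and 0.00366 without a filter, and H2-K1 between the WT groups became -0.0943 without a filter. Tap1 between the pure groups became 0.00742 with the block by wells.

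With 1 library left out, log2 fold changes between mixed and pure WT cells ranged from -0.195 to 0.561 for H2-D1, -0.286 to 0.227 for H2-K1, -0.481 to 0.613 for Psmb10 and -8.59 to 1.49 for Tapbp, which has 0 reads in A02. Between mixed and pure cancer cells H2-D1 ranged from -0.132 to 0.469. Between the pure groups B2m ranged from -1.04 to 0.10, Tap1 from -0.450 to 0.405 and Tapbp from -0.934 to 0.758. Between the mixed groups H2-D1 ranged from -0.765 to 0.00904, H2-K1 from -0.175 to 0.357, Psmb10 from -0.315 to 0.729 and Tapbp from -0.490 to 9.59. The causes were not tested. A lone library left in a group is assumed to vary like the others. Pooled ratios of mixed over pure WT cells ranged from 9.76 to 75.3 for Psmb8 and from 2.11 to 5.16 for Psmb9 with a WT library left out.

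The labels give no replicate number that groups share, but the wells run through the 4 groups in the same order in A01 to A04 and in A05 to A08. With these quartets as a replicate block, an alternative chosen after seeing the data, 2 members were called between mixed and pure WT cells, B2m (log2 fold change 1.41, adjusted p = 0.0408) and Tap1 (3.82, adjusted p = 0.0397), as were 119 genes of the whole table in place of 39, and no other member's call changed. For the difference of the changes 30 genes were called in place of 4. Deviations of libraries of the same quartet correlated across 5264 genes at 0.0443 to 0.211 between pairs of groups, and nothing in the labels makes a quartet a shared batch, so the pairing is not shown. Depth limits A02 most, where 3 reads make 39.3 CPM.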
